A study of Saccharomyces cerevisiae with 6 samples.

Results

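The 7 small nucleolar RNA genes SNR72 to SNR78 of the yeast Saccharomyces cerevisiae lie next to each other, in the order SNR78, SNR77, SNR76, SNR75, SNR74, SNR73, SNR72, with 0 other genes listed between them in the R64 gene table. Each encodes a box C/D snoRNA that guides 1 ribose methylation of ribosomal RNA (rRNA). The sites were taken by their guides, not by any measured value: 5 lie in 25S rRNA of the large subunit (LSU) and 2 in 18S rRNA of the small subunit (SSU), out of 55 known ribose methylation sites, 37 in 25S and 18 in 18S. All 7 are marked as 2'-O-methyl sites in the deposited annotation.

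Box C/D snoRNAs pair with rRNA and place the methyltransferase Nop1 (fibrillarin in humans) on the nucleotide that pairs with the fifth position upstream of box D. Most yeast snoRNAs have promoters of their own, whereas this cluster is transcribed as 1 precursor that the RNase III enzyme Rnt1 cuts apart and exonucleases trim. Many yeast rRNA methylations are made while the rRNA precursor is still being transcribed. RiboMeth-seq reads such sites as gaps: alkali breaks RNA between nucleotides, a 2'-O-methyl group protects the bond that follows it, and fragment ends are counted at every bond.

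The study compared 6 groups of 1 sample each. Knock-in mature LSU rRNA was gel-purified from strain YWD680, whose plasmid supplies an artificial snoRNA aimed at LSU-U2954, and knock-in whole-cell RNA came from that same strain. Knock-out whole-cell RNA came from strain YWD486, whose plasmid holds the snR67-snR53 region with 1 base substitution, so that LSU-G2619 stays unmethylated. Chromatin-associated RNA came from the wild-type strain BY4741, as did gel-purified mature LSU rRNA and gel-purified mature SSU rRNA, the references for 25S and 18S sites. No label describes a change to the SNR72 to SNR78 genes in any strain. No group was repeated, so there are no p-values, and strain, RNA type and library cannot be told apart where groups differ in more than 1 of them. Knock-in whole-cell RNA was deposited as 2 data files, called runs here, and as their sum, which was used unless a run is named.

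The score of a site is 1 minus its read ends divided by the mean of its 6 weighted neighbours on each side. A score near 1 is full protection, and 0 is no gap at all. Intervals are 95% counting intervals: reads are taken as independent, although they carry no molecular identifiers, and the spread between samples is not covered. Read ends on 25S numbered 1197181 in knock-in mature LSU, 734670 in knock-in whole-cell, 214862 in knock-out, 18489246 in chromatin-associated and 1229170 in wild-type mature LSU. Ends on 18S numbered 517732 in knock-in whole-cell, 214756 in knock-out, 9790438 in chromatin-associated and 283160 in wild-type mature SSU. Read ends were spread least evenly in run 2 of the knock-in whole-cell sample, where the coefficient of variation between 25S positions was 1.64, against 0.704 in run 1 and 0.570 in wild-type mature LSU.

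**Figure D1:**
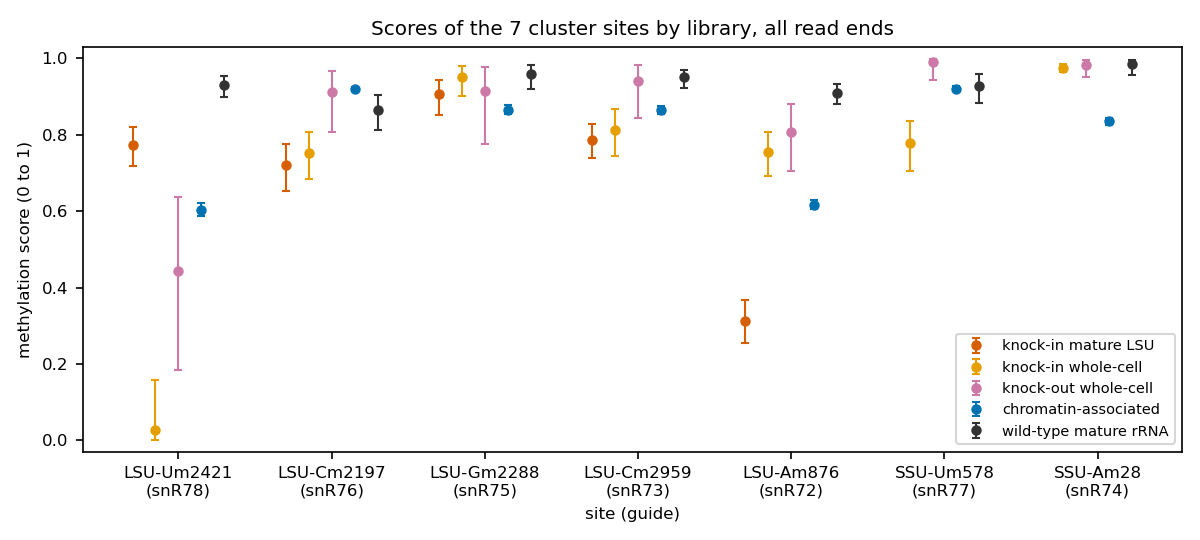
Methylation score (vertical axis, 0 to 1, all read ends) of the 7 cluster sites in each library. Points are scores and bars 95% counting intervals. LSU-Um2421 ranges from 0.0276 to 0.930 and LSU-Am876 from 0.313 to 0.911, while LSU-Gm2288 stays between 0.866 and 0.960.

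In mature wild-type rRNA all 7 sites were protected. Scores were 0.930 at LSU-Um2421 (snR78), 0.864 at LSU-Cm2197 (snR76), 0.960 at LSU-Gm2288 (snR75), 0.95 at LSU-Cm2959 (snR73) and 0.911 at LSU-Am876 (snR72). In 18S they were 0.929 at SSU-Um578 (snR77) and 0.986 at SSU-Am28 (snR74). Each exceeded the 99th percentile of unlisted positions of its library, here called detection, as did 98.2% of the 55 known sites. The order of the 25S scores was snR75, snR73, snR78, snR72 and snR76, and no neighbours in that order differed beyond their counting interval. The 5 sites had a median of 0.930, against 0.979 at the 32 other known 25S sites.

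In the other libraries detection was less complete. Among the cluster sites 4 of 5 were detected in knock-in mature LSU, where Am876 was not, beside 86.5% of 37 known sites. In knock-in whole-cell RNA 3 of 7 were detected, beside 85.5% of 55 known sites, with Am876, Cm2197, Um2421 and Um578 missing. These 4 scored 0.593, 0.929, 0.872 and 0.933 in run 1 and 0.795, 0.706, 0 and 0.722 in run 2. Detection was counted on the sum of the runs and not in each run. On the sum Am876, Cm2197 and Um578 scored 0.755, 0.751 and 0.778, above the wild-type percentile of their subunit. In the knock-out 6 of 7 were detected, all but Um2421, beside 90.9% of known sites. In chromatin-associated RNA 5 of 7 were detected, all but Am876 and Um2421, beside 67.3% of known sites.

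SNR78 is the first gene of the cluster and guides LSU-Um2421, at position 461898 of chromosome XII on the minus strand. Chromosome positions are counted from 1 here, while starts in the sample files, which name no genome build, are counted from 0. Its neighbourhood is crowded: Um2417, guided by snR66, lies 4 nucleotides upstream, and a pseudouridine lies at 2416, so that the flanks hold 2 modified positions. The site had 79 read ends and a score of 0.774 (0.718 to 0.821) in knock-in mature LSU, 220 ends and 0.0276 (0 to 0.157) in knock-in whole-cell, 27 ends and 0.444 (0.183 to 0.637) in knock-out, 2144 ends and 0.604 (0.587 to 0.621) in chromatin-associated RNA, and 28 ends and 0.930 (0.898 to 0.953) in wild-type mature LSU. Its scores ranged over 0.902 across the 5 libraries, the widest of the 7 sites, against a median range of 0.193 at the 32 other known 25S sites. With run 1 alone in place of both knock-in whole-cell runs the range was 0.485, below the 0.598 of Am876. None of the other 4 libraries overlapped wild type in its interval.

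Most read ends at Um2421 were of 1 kind in the 5 libraries. A break leaves a fragment that ends at the bond (a 3' end) and a fragment that starts after it (a 5' end), and both kinds were counted separately. At Um2421 in knock-in whole-cell RNA 214 of 220 ends were 3' ends, or 97.3% (exact interval 94.2% to 99%), while 3' ends made up 56% of the ends at the 12 flanking positions. The share at the site was 93.7% in knock-in mature LSU, 92.6% in knock-out, 92.4% in chromatin-associated RNA and 75.0% in wild-type mature LSU, where 3' ends made up 25.4% of the ends in the flanks. In run 1 of the knock-in whole-cell sample it was 50%, 5 of 10. In each of these 5 libraries the site thus held a larger share of 3' ends than its neighbours.

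Scored on 5' ends alone, Um2421 stayed high in every library. The 5' score was 0.963 in knock-in mature LSU, 0.939 in knock-in whole-cell, 0.914 in knock-out, 0.861 in chromatin-associated RNA and 0.977 in wild-type mature LSU, a range of 0.116. On 3' ends the scores were 0.657, 0, 0.0140, 0.533 and 0.781 in that same order of libraries, a range of 0.781. The 5' score exceeded the 3' score by 0.939 (0.867 to 0.978) in knock-in whole-cell RNA, the largest gap among 37 known 25S sites there, and by 0.90 (0.475 to 0.977) in the knock-out, again the largest. The 3' score of knock-in whole-cell RNA was set to 0, with 214 ends against a mean flanking count of 128. The interval of that gap thus covers the 5' score alone. In wild-type mature LSU the gap was 0.196 (0.108 to 0.314), the second largest. The median gap over the 37 sites lay between 0 and 0.0219 in these 5 libraries.

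The plot of read ends around the site shows where the 3' ends lie. In knock-in whole-cell RNA 3' ends numbered 105 at the position before Um2421, 214 at it, 44 after it and 363 at 2 positions after it. The chromatin-associated library gave 3362, 1980, 811 and 3185 at those 4 positions, and wild-type mature LSU gave 30, 21, 2 and 55. In each of the 5 libraries the position after Um2421 had fewer 3' ends than Um2421 itself. Among 5' ends Um2421 was the lowest of the 13 window positions in 5 of 5 libraries once the 2 modified flanking positions were set aside, against 0 of 5 libraries among 3' ends.

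**Figure D2:**
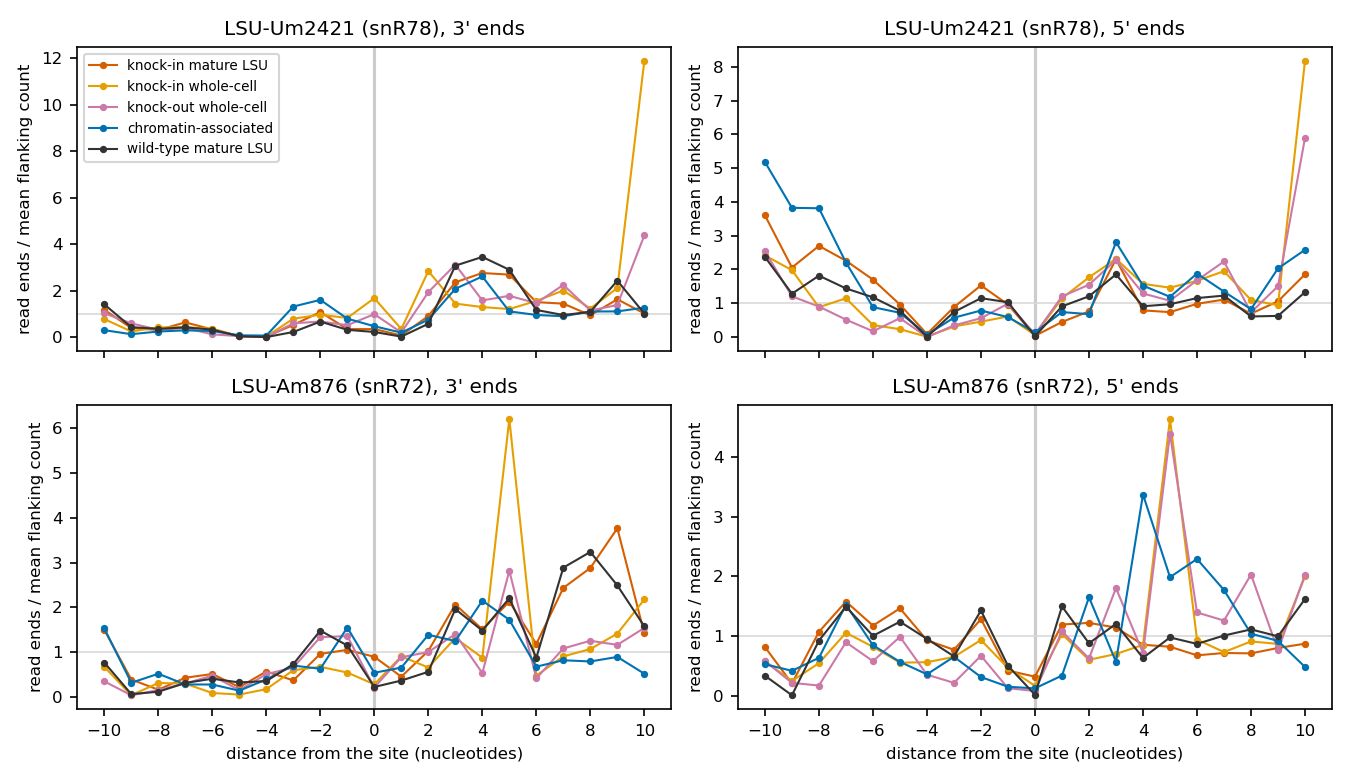
Read ends at each position divided by the mean flanking count, against the distance in nucleotides from LSU-Um2421 (top) and LSU-Am876 (bottom), for 3' ends (left) and 5' ends (right). Lines are libraries. The 5' ends dip at distance 0 in all 5 libraries, with 6 read ends at Um2421 in knock-in whole-cell RNA, which has 214 3' ends at that position.

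SNR72, the last gene of the cluster, guides LSU-Am876, at position 463443. The nearest known site is Gm867 (snR50), 9 nucleotides away, and no modified position lies in its flanks. Am876 had 611 read ends and a score of 0.313 (0.255 to 0.368) in knock-in mature LSU, 79 ends and 0.755 (0.693 to 0.806) in knock-in whole-cell, 21 ends and 0.808 (0.706 to 0.882) in knock-out, 4501 ends and 0.617 (0.605 to 0.628) in chromatin-associated RNA, and 49 ends and 0.911 (0.882 to 0.934) in wild-type mature LSU. The lowest score was that of knock-in mature LSU, where Am876 ranked last of 37 known 25S sites. The intervals of the other 4 libraries lay below that of wild type, the knock-out's by a margin lost in rounding.

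Am876 showed the same imbalance of ends. Its 5' score was 0.671 in knock-in mature LSU, 0.823 in knock-in whole-cell, 0.910 in knock-out, 0.866 in chromatin-associated RNA and 0.974 in wild-type mature LSU, and its 3' score was 0.0976, 0.711, 0.782, 0.453 and 0.769 in that order. The gap of 5' over 3' was 0.413 (0.392 to 0.434) in chromatin-associated RNA and 0.204 (0.134 to 0.291) in wild-type mature LSU, the largest of 37 sites in both, and 0.574 (0.468 to 0.678) in knock-in mature LSU, the second largest. In knock-in whole-cell RNA and the knock-out its interval included 0. The site was the lowest of its 13-position window in 5 of 5 libraries by 5' ends and in 1 of 5 by 3' ends.

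SNR73 guides LSU-Cm2959, at position 461360, in the region of the peptidyl transferase centre where peptide bonds are made. LSU-U2954, the target of the artificial snoRNA, lies 5 nucleotides upstream and so inside its flanks. Cm2959 had 96 read ends and a score of 0.787 (0.740 to 0.828) in knock-in mature LSU, 40 ends and 0.813 (0.745 to 0.867) in knock-in whole-cell, 4 ends and 0.940 (0.845 to 0.984) in knock-out, 721 ends and 0.865 (0.855 to 0.875) in chromatin-associated RNA, and 20 ends and 0.95 (0.923 to 0.970) in wild-type mature LSU. The intervals of both knock-in libraries and of chromatin-associated RNA lay below that of wild type. The 5' score was between 0.924 and 0.994 in the 5 libraries, and the 3' score between 0.664 and 0.932. The gap of 5' over 3' was 0.283 (0.161 to 0.423) in knock-in whole-cell RNA and 0.0797 (0.0371 to 0.128) in wild-type mature LSU, the second and the fifth largest of 37. Its interval included 0 in the knock-out, at 0.0239 (-0.188 to 0.163).

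SNR76 guides LSU-Cm2197, at position 462122, with a pseudouridine 6 nucleotides upstream at 2191. Cm2197 had 88 read ends and a score of 0.720 (0.654 to 0.776) in knock-in mature LSU, 69 ends and 0.751 (0.684 to 0.807) in knock-in whole-cell, 6 ends and 0.912 (0.807 to 0.968) in knock-out, 710 ends and 0.920 (0.914 to 0.926) in chromatin-associated RNA, and 39 ends and 0.864 (0.814 to 0.904) in wild-type mature LSU. By all ends it was the only cluster site whose chromatin-associated interval lay wholly above that of wild-type mature rRNA. Neither end type alone showed this. The difference was -0.0308 (-0.0587 to 0.0506) by 3' ends and 0.0355 (-0.0164 to 0.101) by 5' ends. In its flanks 3' ends made up 74.2% of ends in chromatin-associated RNA and 23.0% in wild-type mature LSU. In the wild-type mature SSU library Cm2197 scored 0.965 (0.804 to 0.999), above its chromatin-associated score. The ends at Cm2197 were unbalanced the other way. In wild-type mature LSU 37 of 39 ends were 5' ends, and the 5' score of 0.834 was below the 3' score of 0.969, a gap of -0.135 (-0.205 to -0.0403) that was the lowest of 37 sites. The gap was -0.248 (-0.355 to -0.133) in knock-in whole-cell RNA, -0.150 (-0.264 to -0.00790) in knock-in mature LSU and -0.0690 (-0.0858 to -0.0533) in chromatin-associated RNA, and in the knock-out it was -0.0657 with an interval that included 0.

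SNR75 guides LSU-Gm2288, at position 462031, 7 nucleotides from Am2281, 1 of the sites of snR13. Gm2288 had 19 read ends and a score of 0.906 (0.852 to 0.943) in knock-in mature LSU, 7 ends and 0.952 (0.90 to 0.981) in knock-in whole-cell, 4 ends and 0.914 (0.777 to 0.977) in knock-out, 522 ends and 0.866 (0.853 to 0.877) in chromatin-associated RNA, and 8 ends and 0.960 (0.920 to 0.983) in wild-type mature LSU. This was the narrowest range of the 7 sites, 0.0939, although with run 1 alone it was 0.134 and that of Um578 was 0.0693. By all ends, by 3' ends and by 5' ends it was the lowest position of its window in 5 of 5 libraries. Its 2 end types gave like scores, with a gap of -0.0123 (-0.0719 to 0.0764) in wild-type mature LSU, and the interval of the gap excluded 0 in chromatin-associated RNA alone, at -0.0315 (-0.0572 to -0.00691).

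SNR77 guides SSU-Um578, at position 466292, in the 18S loop that forms part of the decoding centre, where codons are read. Um578 had 50 read ends and a score of 0.778 (0.706 to 0.836) in knock-in whole-cell RNA, 1 end and 0.990 (0.944 to 1.00) in knock-out, 650 ends and 0.921 (0.914 to 0.927) in chromatin-associated RNA, and 16 ends and 0.929 (0.884 to 0.959) in wild-type mature SSU. The knock-in whole-cell interval lay below those of the other 3 libraries. The 5' score was 0.923 in knock-in whole-cell RNA and the 3' score 0.622, a gap of 0.301 (0.172 to 0.445) that was the largest of 18 known 18S sites there. In wild-type mature SSU the gap was -0.0766, with an interval that included 0.

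SNR74 guides SSU-Am28, at position 466842, near the 5' end of 18S and 72 nucleotides from the nearest known site. Am28 had 22 read ends and a score of 0.976 (0.964 to 0.985) in knock-in whole-cell RNA, 3 ends and 0.983 (0.952 to 0.997) in knock-out, 1215 ends and 0.835 (0.826 to 0.845) in chromatin-associated RNA, and 3 ends and 0.986 (0.958 to 0.997) in wild-type mature SSU. The chromatin-associated library alone stood apart, below all 3 others. There the 5' score was 0.783 and the 3' score 0.857, and the window's lowest position was Am28 by both end types.

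Across the 33 combinations of cluster site and library, the 5' score reached 0.8 in 29, or 87.9%, and the 3' score in 19, or 57.6%. At the 48 other known sites the shares were 83.5% by 5' ends and 83.0% by 3' ends, over 224 combinations. By all ends 66.7% of cluster combinations reached 0.8, against 86.2% of the others. With listed modified neighbours set aside, the cluster site was the lowest position of its window in 33 of 33 combinations by 5' ends and in 21 of 33 by 3' ends. That count was made at cluster sites only, so it cannot be set against other known sites. Combinations share sites and libraries and are not independent.

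**Figure D3:**
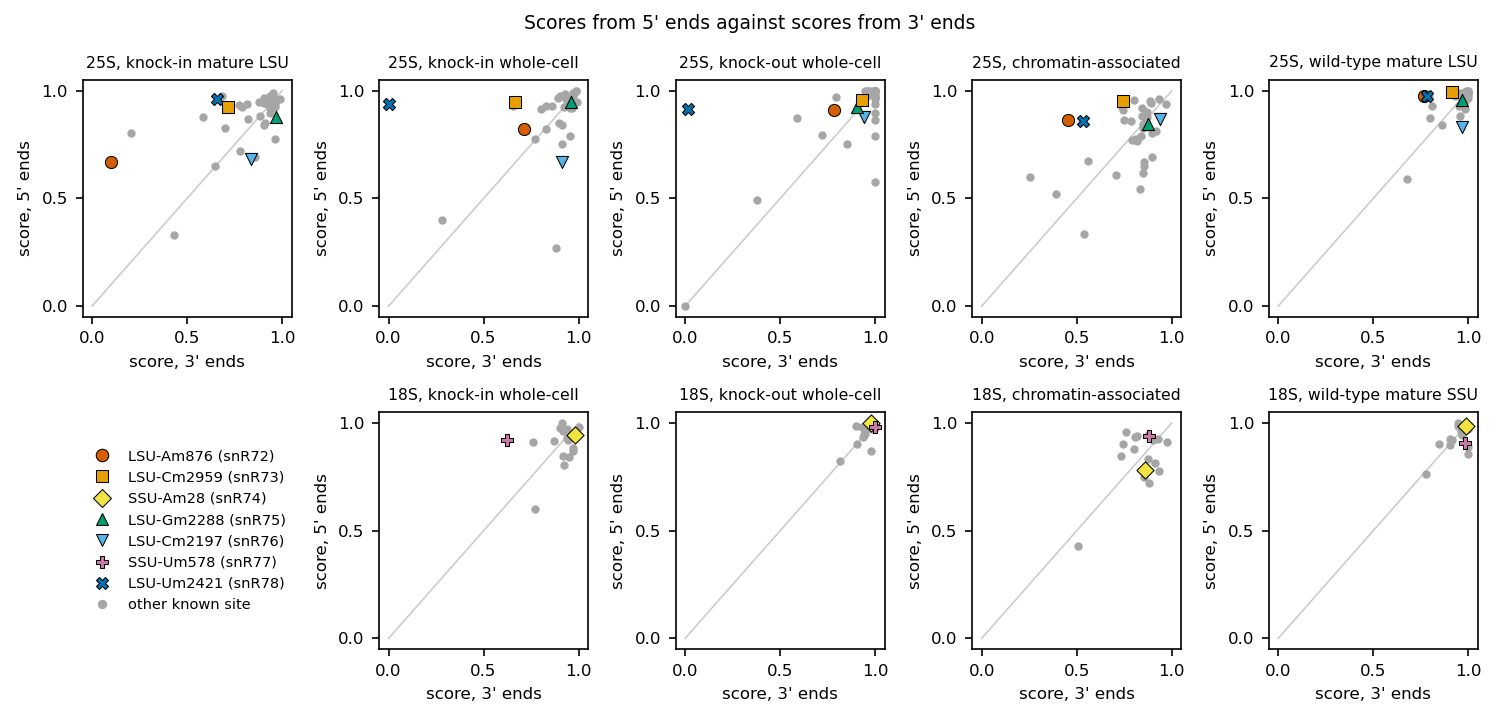
Score from 5' ends (vertical axis) against score from 3' ends (horizontal axis), both 0 to 1, at known sites of 25S (top) and 18S (bottom) in each library. Grey points are other known sites, and the line marks equal scores. LSU-Um2421, LSU-Am876 and LSU-Cm2959 lie above the line in all 5 libraries, and LSU-Cm2197 below it.

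The 2 runs of the knock-in whole-cell sample repeat 1 sample. By all ends their largest differences in 25S and in 18S were at cluster sites, Um2421, Cm2197 and Um578. At Um2421 run 1 gave 10 read ends and a score of 0.872, and run 2 gave 210 ends, more than the 148 expected from its neighbours, and a score of 0. The difference of 0.872 (0.763 to 0.939) was the largest of 37 known 25S sites, and that of Cm2197, scored 0.929 in run 1 and 0.706 in run 2, was the second. At Um2421 the score of run 2 was set to 0, so the interval covers the counting error of run 1 alone. Um578, at 0.933 in run 1 and 0.722 in run 2, differed by 0.211 (0.0820 to 0.317), the largest of 18 known 18S sites. Am876 differed the other way, with 0.593 in run 1 and 0.795 in run 2.

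By end type the runs differed unequally. At Um2421 3' ends numbered 5 in run 1 and 209 in run 2, while 5' ends numbered 5 and 1. Its 5' scores were 0.930 in run 1 and 0.963 in run 2, and the interval of their difference included 0. Cm2959, Gm2288 and Am28 differed by at most 0.0665 between runs by all ends, within their counting intervals. No label says what separated the runs, and the part that uneven coverage plays in these differences was not tested.

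**Figure D4:**
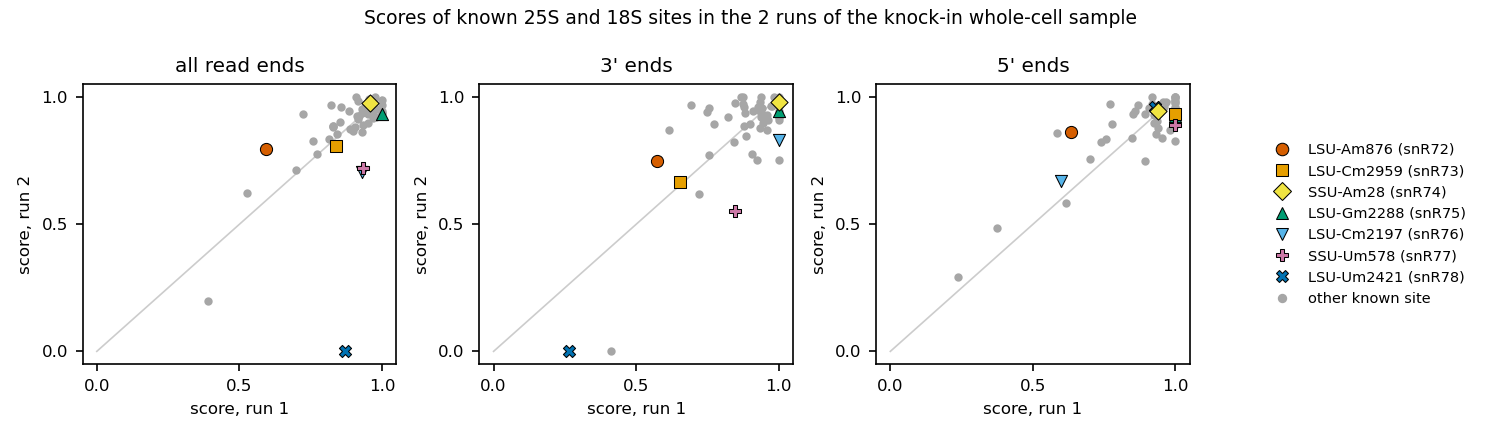
Score in run 2 (vertical axis) against score in run 1 (horizontal axis) of the knock-in whole-cell sample at the known 25S and 18S sites, for all read ends, 3' ends and 5' ends. The line marks equal scores. LSU-Um2421 lies at 0.872 in run 1 and 0 in run 2 by all ends, and near the line by 5' ends.

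Differences between groups were called when the 95% counting interval of the score difference excluded 0 and its size was above 2 SD of the run 1 minus run 2 differences at known sites outside the cluster. That limit was 0.134 in 25S and 0.110 in 18S for all ends. Calls by 1 end type used the wider limit of that end type. In 25S it was 0.254 by 3' ends and 0.172 by 5' ends, and in 18S 0.201 and 0.164. Each limit rests on 1 pair of runs. Um2421 differed most between the runs, so the limit for all ends was also taken over all known sites. It was then 0.329 in 25S and 0.151 in 18S, and calls that it ends are named below.

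Set against wild-type mature LSU, knock-in mature LSU was lower at 4 of 5 cluster sites, among 37.8% of 37 known sites called lower, and higher at 0 of 5, beside 0% of known sites. The difference was -0.598 (-0.661 to -0.536) at Am876, the lowest of all 37, -0.163 at Cm2959, -0.156 at Um2421 and -0.145 at Cm2197. At Gm2288 it was -0.0537, with an interval that included 0. The median over the cluster sites was -0.156, and over all known sites -0.0663. Only Am876 remained called with the limit over all known sites, and by 5' ends alone, at -0.303 (-0.373 to -0.239). Cm2197 differed by -0.149 (-0.243 to -0.0559) by 5' ends, below 0 but inside the 5' limit. Um2421 differed by -0.125 (-0.247 to 0.0143) by 3' ends and by -0.0141 (-0.0659 to 0.0212) by 5' ends. Neither end type alone thus separated Um2421 from wild type, whereas at Cm2959 and Cm2197 the intervals lay below 0 by both. Leaving LSU-U2954 out of the flanks of Cm2959 gave -0.154, still called.

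Knock-in whole-cell RNA was lower than wild-type mature rRNA at 4 of 7 sites, against 14.5% of 55 known sites, and higher at 0 of 7, against 1.82%. The difference was -0.902 (-0.938 to -0.769) at Um2421, -0.156 at Am876, -0.151 at Um578 and -0.137 at Cm2959. The remaining sites differed by -0.113 at Cm2197, -0.00961 at Am28 and -0.00773 at Gm2288 and were not called. The median was -0.137 over the cluster sites and -0.0380 over all known sites. Only Um2421 remained called with the limit over all known sites. With LSU-U2954 left out of its flanks, Cm2959 scored 0.823 here and 0.952 in wild type. It was then not called, unlike in knock-in mature LSU. With run 1 alone the difference at Um2421 was -0.0576 (-0.169 to 0.0163) and only Am876 was called, and by 5' ends alone 0 sites were called. With both runs, Am876 differed by -0.150 and Cm2197 by -0.166 by 5' ends. Their intervals lay below 0, but the differences were inside the 5' limit.

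Whole-cell RNA of the knock-in strain and of the knock-out strain were compared as the same RNA type. Knock-in whole-cell RNA was lower at 3 of 7 sites, against 10.9% of 55 known sites, and higher at 0 of 7, against 1.82%. The difference was -0.417 (-0.612 to -0.125) at Um2421, -0.212 (-0.284 to -0.138) at Um578 and -0.160 (-0.248 to -0.0415) at Cm2197. Cm2959, Am876 and Am28 differed by -0.127, -0.0537 and -0.00752, and Gm2288 by 0.0383, none of them called. The median was -0.127 over the cluster sites and -0.0377 over all. At Um2421 the direction depended on the run: with run 1 alone the difference was 0.428 (0.206 to 0.698), and knock-in RNA was called higher. With both runs it was 0.0251 by 5' ends and -0.0140 (-0.372 to 0) by 3' ends, neither of them called. The 3' score was set to 0 in knock-in whole-cell RNA and was 0.0140 in the knock-out, so the 3' interval covers the knock-out alone. Neither end type alone thus showed the difference seen by all ends. With run 1 alone Um578 differed by -0.0569 (-0.162 to 0.0102) and Cm2197 by 0.0171 (-0.108 to 0.134), neither of them called, and Am876 by -0.215 (-0.423 to -0.0390), called lower, so that 0 of the 3 sites remained called lower. Um578 was not called by 5' ends, and Cm2197 was not called with the limit over all known sites.

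Within the knock-in strain, mature LSU rRNA was lower than whole-cell RNA at 1 of 5 sites, against 10.8% of 37 known sites, and higher at 1 of 5, against 2.7%. Am876 was lower by a difference of -0.441 (-0.519 to -0.359), and Um2421 higher by 0.746 (0.606 to 0.801). These were the lowest and the highest difference of all 37 sites. The knock-in mature LSU file was made with read handling of its own, per its headers. RNA type and read handling thus cannot be told apart in this comparison. The same holds for strain and read handling where that file is set against wild-type mature LSU. Cm2197, Cm2959 and Gm2288 differed by -0.0318, -0.0257 and -0.0460, with intervals that included 0. With run 1 alone the difference at Um2421 was -0.0980 (-0.185 to 0.0205), and at Am876 it was -0.280 (-0.434 to -0.0782), still called. Cm2197, not called with both runs, was then lower by a difference of -0.209 (-0.293 to -0.0838). By 5' ends alone neither Am876 nor Um2421 was called. With both runs the 5' difference at Am876 was -0.152 (-0.248 to -0.0428), below 0 but inside the 5' limit.

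The knock-out was lower than wild-type mature rRNA at 1 of 7 sites, Um2421, against 7.27% of 55 known sites, and higher at 0 of 7, beside 0%. The difference at Um2421 was -0.485 (-0.748 to -0.290). At the other 6 sites it lay between -0.103 at Am876 and 0.0615 at Um578. The medians were -0.0103 over the cluster sites and 0 over all known sites. By 5' ends alone Um2421 differed by -0.0628 (-0.291 to 0.0168) and was not called. The 5' score of Um2421 in the knock-out rests on 2 read ends.

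Chromatin-associated RNA is enriched for transcripts still being made. It was lower than wild-type mature rRNA at 3 of 7 sites, against 45.5% of 55 known sites, and higher at 0 of 7, beside 0%. The difference was -0.325 (-0.355 to -0.290) at Um2421, -0.294 (-0.320 to -0.263) at Am876 and -0.150 (-0.165 to -0.121) at Am28. Gm2288 and Cm2959 differed by -0.0939 and -0.0851 with intervals below 0 but inside the limit, Um578 by -0.00782 and Cm2197 by 0.0563. The median of -0.0939 over the cluster sites was nearer 0 than the -0.122 over all known sites. With the limit over all known sites 0 of the 3 remained called. By 5' ends Am28 alone was called, at -0.203 (-0.228 to -0.133), and by 3' ends Am876 alone, at -0.316 (-0.385 to -0.228). Um2421, Cm2959, Am28, Um578 and Gm2288 differed by -0.248, -0.170, -0.128, -0.102 and -0.0906 by 3' ends. By 5' ends Um2421, Gm2288, Am876 and Cm2959 differed by -0.116, -0.110, -0.107 and -0.0425. All of these intervals lay below 0, but the differences were inside the limit of their end type.

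**Figure D5:**
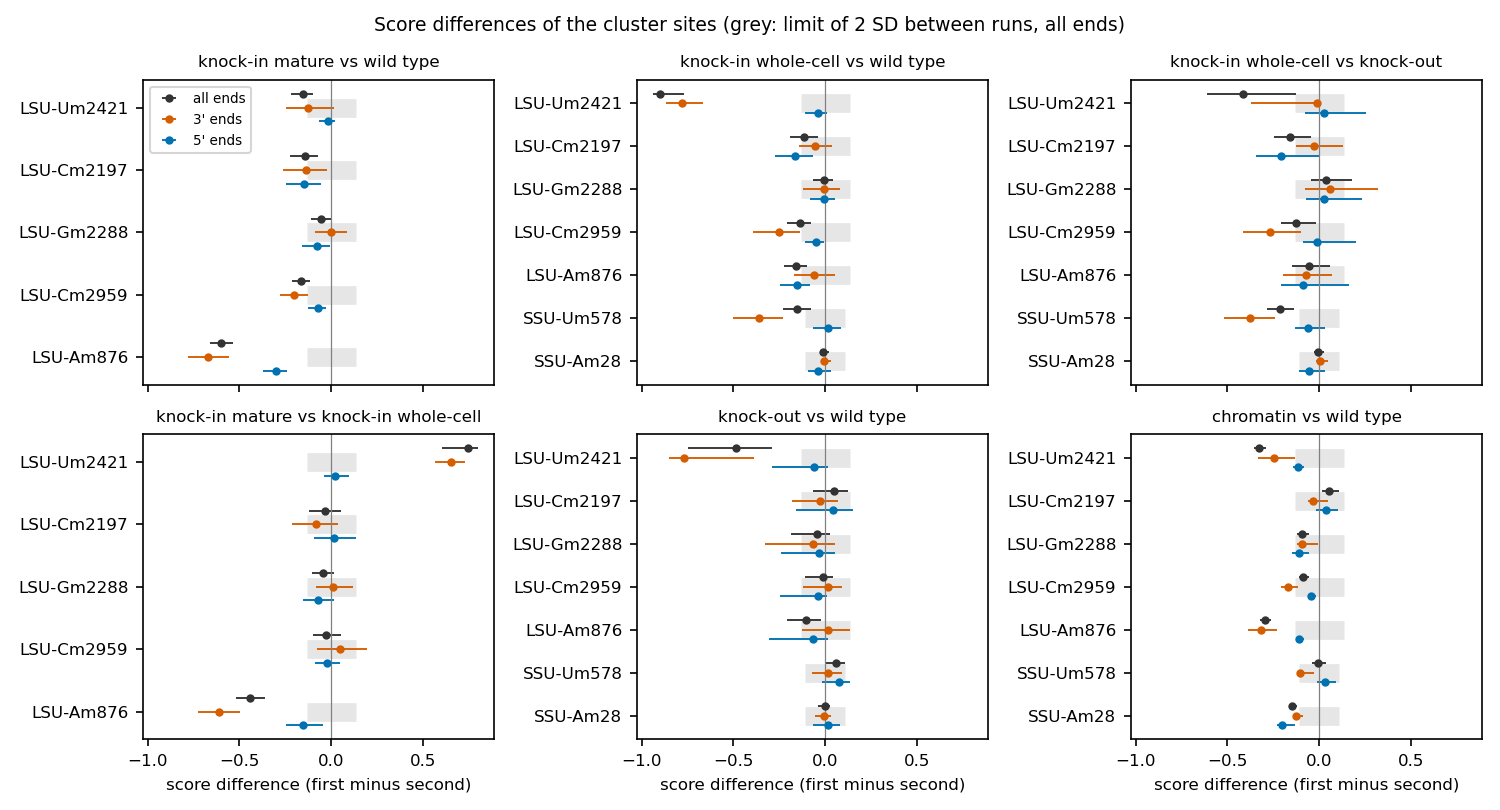
Score differences (horizontal axis, first group minus second) at the cluster sites in the 6 comparisons, for all ends, 3' ends and 5' ends. Points are differences, bars 95% counting intervals and grey bands the limit for all ends, 0.134 in 25S and 0.110 in 18S. At LSU-Um2421 the difference of knock-in whole-cell RNA from wild type is -0.902 by all ends, -0.781 by 3' ends and -0.0377 by 5' ends.

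Over the 6 comparisons Um2421 was called in all 6 by all ends and in 0 of 6 by 5' ends. By 3' ends it was called for knock-in whole-cell RNA and the knock-out against wild type, and between the knock-in RNA types. It was not called by 3' ends in the other comparisons. By all ends the call was higher between the knock-in RNA types and lower in the rest. With run 1 alone, Um2421 was not called in knock-in whole-cell RNA against wild type or between the knock-in RNA types. Against the knock-out it was then called higher. With the other wild-type library as the reference, its calls in knock-in mature LSU, the knock-out and chromatin-associated RNA ended. Gm2288 was called in 0 of 6. The comparisons share libraries, so these calls are not independent of each other.

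A second, shallower measure of wild-type 25S came from the 70381 read ends on 25S in the gel-purified SSU library. There Um2421 scored 0.592 (0.144 to 0.838) with 7 read ends, 7 of them 3' ends, Am876 0.823 (0.631 to 0.929), Cm2959 0.95 (0.721 to 0.999) and Cm2197 0.965 (0.804 to 0.999). Gm2288 had 0 read ends, which allows a score down to 0.843 at 3 counts. The intervals of Um2421 in the 2 wild-type libraries did not overlap. With this library as the reference, Um2421 was not called in the comparisons of knock-in mature LSU, knock-out and chromatin-associated RNA, where the differences were 0.182, -0.147 and 0.0126, and knock-in whole-cell RNA remained lower, at -0.564 (-0.812 to -0.0978).

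The order of scores within a library was mostly not resolved by counting error. In knock-in mature LSU the 25S order was snR75, snR73, snR78, snR76 and snR72, with the first above the second by 0.118 (0.0514 to 0.179) and the last below its neighbour by 0.406 (0.321 to 0.487), while snR73, snR78 and snR76 did not differ from their neighbours beyond their intervals. In knock-in whole-cell RNA it was snR75, snR73, snR72, snR76 and snR78, and in the knock-out snR73, snR75, snR76, snR72 and snR78, with Um2421 last in both, below its neighbour by 0.724 (0.579 to 0.786) and 0.364 (0.145 to 0.636). The snR73, snR72 and snR76 sites were not separated in knock-in whole-cell RNA, nor were the first 4 in the knock-out. In chromatin-associated RNA it was snR76, snR75, snR73, snR72 and snR78, where snR76 stood above snR75 and snR73 above snR72, and the last pair differed by 0.0127 (-0.00773 to 0.0335). Between the 18S sites Am28 was above Um578 by 0.198 (0.139 to 0.270) in knock-in whole-cell RNA and by 0.0571 (0.0156 to 0.103) in wild type, and Um578 was above Am28 by 0.0853 (0.0741 to 0.0966) in chromatin-associated RNA.

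The deposited Score A of the authors is a different statistic on a scale of its own. In the authors' deposited track Um2421 had a Score A of 0.309 in knock-in mature LSU, 0 in knock-in whole-cell, knock-out and chromatin-associated RNA, and 0.778 in wild-type mature LSU. For Am876 the authors' deposited values were 0.0264, 0.0943, 0.255 and 0.164 in those 4 libraries and 0.777 in wild-type mature LSU. At Um578 the authors' deposited Score A was 0.289 in chromatin-associated RNA and 0.812 in wild-type mature SSU, while the score used here was 0.921 and 0.929.

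Known sites of the same subunit outside the cluster were searched for the most similar scores, by the mean absolute difference over the libraries that the comparisons use, 5 for 25S and 4 for 18S. Am28 lay nearest to SSU-Am541 (snR41), at 0.00819, Cm2959 to LSU-Am2220 (snR47), at 0.0316, Cm2197 to LSU-Gm908 (snR60), at 0.0784, and Am876 to its neighbour LSU-Gm867 (snR50), at 0.100. These 4 were also nearest over all 6 sample files, which include 18S scores of 1 that rest on 0 read ends. For Gm2288, Um578 and Um2421 the nearest site differed between the 2 searches. Um2421 had no close counterpart in either, with a smallest difference of 0.241 over 5 libraries and 0.255 over 6 files. Both searches used the sum of the knock-in whole-cell runs, where Um2421 scored 0.872 in run 1 and 0 in run 2. The search was not repeated with single runs.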

How the data were processed

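Total RNA was broken to short fragments, joined to adapters by a kinase-dead tRNA ligase and sequenced, per the labels. The submitters' processing notes name cutadapt 1.2 and Bowtie2 2.1.0. No source used here gives the genome build, the mapping options or the treatment of multiply mapping reads. Each of 8 deposited sample files holds 6 tracks in 1 column: counts of RNA 3' ends, 5' ends and both, without normalization, and 3 scores of the authors, of which Score A is cited. At all 5196 rRNA positions the counts of both ends were the sum of the other 2, and the combined knock-in counts were the sum of the runs. The knock-in mature LSU file was made with read handling of its own, per its headers, and its 18S ends (8429) entered only the search for similar sites over all 6 sample files.

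The score used weights of 1 down to 0.5 over 6 positions a side, with negative values set to 0. Each score has a Clopper-Pearson interval of the site count against the effective flanking count, and differences combine both intervals (MOVER method). A limit of 2 SD between runs over known sites outside the cluster was added for calls. A count of 0 was read against 3 counts. The 55 sites came from general knowledge, and 54 are in the deposited annotation. All 7 genes were found by symbol in the R64 gene table, used for names and gene order only. No rRNA sequence was used here. All 7 sites are named. Other sites are named only as the most similar, the nearest or a modified neighbour. The members, the site lists and the rules were chosen with earlier results of these data known. Alternatives were 3' or 5' ends alone, 2 flanking positions, median flanks, modified neighbours left out, negative scores kept, other limits, a minimum flanking count of 20, single runs, other references and, in the search for similar sites, the compared libraries alone. The code (Python 3.11.15, numpy 2.4.6, scipy 1.17.1) was tested on simulated counts.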

Additional observations from a re-analysis of the deposited data

How the results depend on the processing

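The calls at cluster sites depend on the end type and the limit. For knock-in mature LSU against wild type, 4 sites were called, against 1 by 3' ends, 1 by 5' ends, 2 with flanks of 2 positions, 1 with the limit over all known sites, 0 with the largest difference between the runs as the limit and 2 with the other wild-type library. For knock-in whole-cell RNA against wild type, 4 became 2 by 3' ends, 0 by 5' ends, 1 with the limit over all known sites and 1 with the largest run difference, and single runs gave 1 (run 1) to 4 (run 2). Against the knock-out, 3 became 1 by 5' ends, with flanks of 2 positions, with median flanks and with the largest run difference. Run 2 alone gave 3 and run 1 alone 2, Am876 lower and Um2421 higher, neither of which was among the 3 in that direction. For knock-in mature LSU against whole-cell RNA, 2 became 0 by 5' ends and with the largest run difference. Single runs gave 2, but with run 1 these were Am876 and Cm2197, both lower, and not Um2421. For the knock-out against wild type, 1 became 0 by 5' ends, with the largest run difference and with the other wild-type library, and 3 without a limit, of which Um578 was higher. For chromatin-associated RNA against wild type, 3 became 1 by 3' ends, 1 by 5' ends, 0 with the limit over all known sites or the largest run difference, 6 without a limit, of which Cm2197 was higher, 5 with knock-in whole-cell RNA as the reference, of which Um2421, Cm2197 and Um578 were higher and 2 lower, and 1 with the other wild-type library. In wild type 7 sites were detected, and 4 by 3' ends alone. The causes were not tested.

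Of 33 single scores, 22 moved beyond their interval with 3' ends alone, 22 with 5' ends alone, 13 with flanks of 2 positions, 8 with median flanks, 1 without modified neighbours and 0 with negative scores kept. Calls of knock-in mature LSU against wild type held under 11 of 12 alternatives at Am876, 7 at Um2421 and 6 each at Cm2959 and Cm2197. Those of knock-in whole-cell RNA against wild type held under 12 of 14 at Um2421, 10 at Um578, 8 at Am876 and 4 at Cm2959. Against the knock-out they held under 11 of 13 at Um578 and 7 each at Cm2197 and Um2421, which was higher in 1. Between the knock-in RNA types they held under 11 of 13 at Am876 and 10 at Um2421, and for the knock-out under 9 of 12 at Um2421. For chromatin-associated RNA they held under 11 of 14 at Am876, 8 at Am28 and 7 at Um2421, which was higher in 1. The other wild-type library, the flanks without LSU-U2954, the ranges with single runs and the search over compared libraries were chosen after seeing the data. No paired analysis was possible because each group holds 1 sample. Depth limits the knock-out, where cluster sites held 1 to 27 read ends, and the 25S reads of the wild-type SSU library, where they held 0 to 7.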
